A study of Dicentrarchus labrax with 8 samples.

Results

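The genes *amh*, *ihh* and *sdf1a* code for proteins that cells of the testis secrete, and their mRNA was measured on a sea bass oligonucleotide array in testes of European sea bass (*Dicentrarchus labrax*) at the start of puberty. They were chosen by their signals in the comparison of stage I with stage II on these same arrays, as genes that the study listed under reproduction after that comparison. The difference between the stages is therefore given as a description, with no test. The 3 genes are 3 of the 157 gene symbols used here, all taken from the study's list of genes that differed between these stages. A gene without a symbol here may still have a target on the array. The 3 genes were represented by 4 of the 11705 targets and by 12 of the 24200 probes, with 3 probes for each target. The target of *amh* was cDN33P0004N05.F.ab1 and that of *ihh* was cDN22P0001C20.F.ab1. The symbol *sdf1a* stood beside a pair of targets, cDN32P0005O13.F.ab1 and cDN28P0002N16.F.ab1, which are described apart.

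The hormone coded by *amh*, anti-Müllerian hormone, belongs to the transforming growth factor beta (TGF-beta) family, is made by Sertoli cells, and in fish is known to hold back the division and differentiation of spermatogonia. Indian hedgehog, coded by *ihh*, is a ligand of the patched receptors and is best known for its part in cartilage and gut, whereas its relative desert hedgehog is the family member usually described in the testis. The chemokine coded by *sdf1a* (*cxcl12a*) binds the receptor Cxcr4, draws migrating primordial germ cells in fish embryos, and helps to hold germ line stem cells in the mouse testis.

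The fish were untreated males reared under natural light and temperature and sampled ahead of the second breeding season, after precocious males had been removed. Stage I testes were at rest and stage II testes were proliferating, as judged from histology and the plasma level of the androgen 11-ketotestosterone. Each stage had 3 RNA pools of 6 males (18 fish per stage), hybridised with a single dye. Pools 1 and 2 of stage I lay on plate 36, pools 1 and 2 of stage II on plate 37, and pool 3 of each stage on both plates, so that its 2 arrays were averaged and counted once. A pool averages its 6 males, and the fish behind each pool are not seen apart. In RNA from whole testis, fewer cells of a type and less RNA per cell cannot be told apart.

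Signals were expressed as log2 of the processed signal minus the 75th percentile of the array, so that a value of 0 stands for that percentile. The share of spots that the scanner software marked as well above background was 60.2% on the array of stage II pool 1 and lay between 75.8% and 86.7% on every other array. Over the 9019 targets tested, the median log2 difference (stage II minus stage I) was -0.14. Markers of germ cells in meiosis and of dividing cells were measured in both stages, whereas *amh* was the only gene of the Sertoli cell list with a symbol here, so that no other Sertoli cell gene and no Leydig cell gene stood beside it. Genes that the study did not list as differing between the stages carried no symbol here, whether or not the array held them.

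All 3 genes had lower signals in stage II testes than in stage I testes. The log2 signal of *amh* was 0.26, 0.78 and 0.55 in stage I pools 1, 2 and 3, and -0.50, -1.00 and -0.47 in stage II pools 1, 2 and 3. The stage means of *amh*, 0.53 ± 0.26 and -0.66 ± 0.30 (SD, n = 3 pools), lay -1.19 apart on the log2 scale (2.28-fold lower). The log2 signal of *ihh* was -2.32, -2.36 and -2.79 in the stage I pools and -5.11, -4.28 and -3.95 in the stage II pools. The means of *ihh*, -2.49 ± 0.26 and -4.45 ± 0.60 (SD, n = 3 pools), lay -1.96 apart (3.89-fold lower), but none of its probes was well above background on stage II pool 1. The level in that pool is known only to lie below the limit of its array, -3.57, and with the pool set there the difference was -1.45 (2.72-fold lower). The log2 signal of *sdf1a*, from its target cDN32P0005O13.F.ab1, was -0.06, 0.21 and -0.02 in the stage I pools and -2.06, -1.56 and -1.23 in the stage II pools. The means of *sdf1a*, 0.04 ± 0.15 and -1.62 ± 0.42 (SD, n = 3 pools), lay -1.66 apart (3.16-fold lower).

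For none of the 3 genes did a pool of one stage overlap with those of the other. Each was lower in all 9 of the 9 pairs of a stage II with a stage I pool, a pattern found in 39.3% of all 9019 targets, and 61.7% of them had no overlap in one direction or the other. These values chose the genes, so nothing is read from that count. Against the median target the differences were -1.05 for *amh*, -1.82 for *ihh* and -1.53 for *sdf1a*. The value of *ihh* includes stage II pool 1, where its signal was not well above background. A larger fall than that of *amh* was measured in 5.08% of the targets and than that of *sdf1a* in 1.36%. These ranks rest on the values that chose the genes too, so nothing is read from them. The rank of *amh* includes the marked spot described below. No such rank is given for *ihh*, and no order between *ihh* and *sdf1a*. The stage II pools were spread more widely than the stage I pools for *sdf1a*, with an SD of 0.42 against 0.15, where the median SD over all targets was 0.11 in stage I and 0.14 in stage II.

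**Figure D1:**
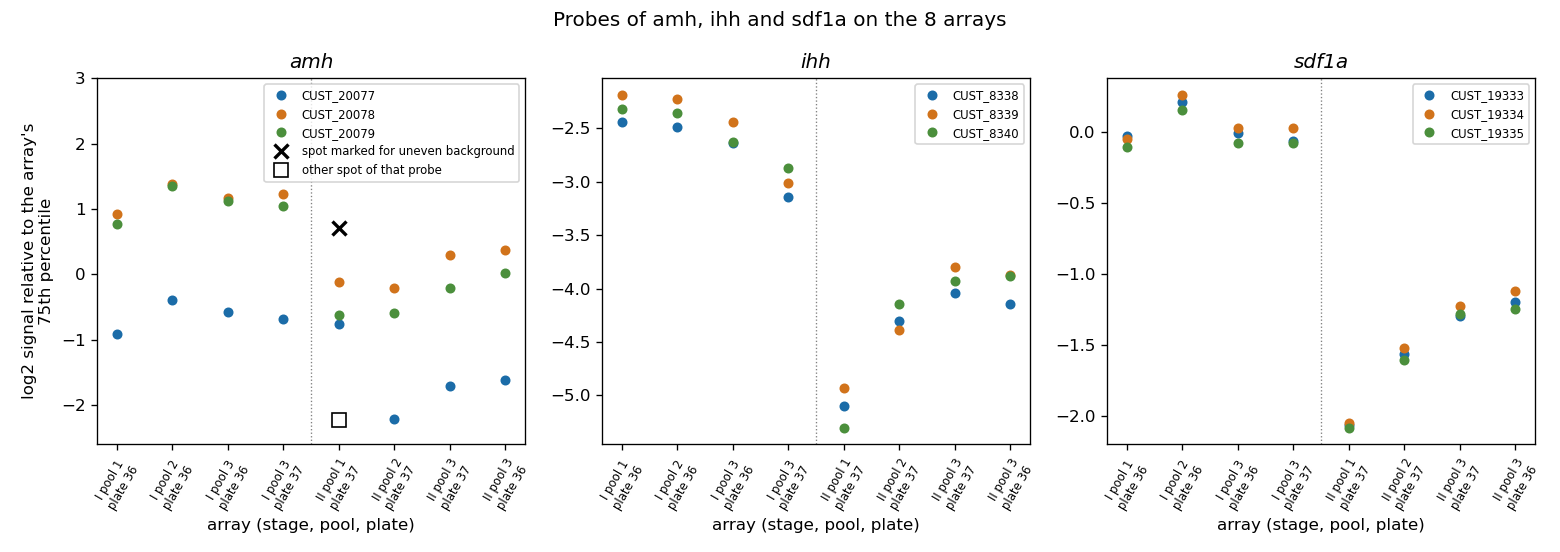
The vertical axis shows the log2 signal, with 0 at the 75th percentile of each array, and the horizontal axis the 8 arrays, with 1 point per probe (the mean of its 2 spots) and a dotted line between the stages. The probes of *sdf1a* moved closely together, and those of *ihh* less closely in stage II pools 1 and 2. Probe CUST_20077_PI416070213 of *amh* stood high on stage II pool 1, where its spots lay at 0.71 (cross, marked for an uneven local background) and -2.23 (square).

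A single spot shifted the value of *amh* in stage II pool 1. Probe CUST_20077_PI416070213 read -0.92, -0.39 and -0.58 on the stage I arrays of plate 36 and -0.69 on the repeated array of pool 3, and -0.76, -2.21, -1.71 and -1.62 on the stage II arrays of pool 1, pool 2 and pool 3 (plates 37 and 36). On stage II pool 1 its 2 spots had processed signals of 5309 and 689.9, a gap of 2.94 on the log2 scale, where the median gap between the spots of a probe was 0.06 over the 24 spot pairs of *amh* and 0.07 over all probes with 2 spots. The brighter spot had a local background of 776.5, above that of 99.8% of the spots of that array, against 18 to 21 around the other *amh* spots there and a median of 19 over the array. The scanner software had marked that spot for an uneven local background, as it had 352 spots (0.804%) of the array, and had not marked it as a feature outlier, the mark on which spots were left out here. It was the only spot with that mark among the 48 spot readings of *amh*, and *ihh* and the first *sdf1a* target had none.

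Without spots bearing that mark, a setting chosen after seeing the data, *amh* in stage II pool 1 was at -0.99 in place of -0.50, next to pool 2 at -1.00 and below pool 3 at -0.47. The mean of *amh* in stage II was then -0.82 ± 0.30 (SD, n = 3 pools) and its log2 difference -1.35 (2.55-fold lower), still lower in 9 of 9 pairs. The difference of the probe itself went from -0.90, with 8 of 9 pairs lower, to -1.39, with 9 of 9. The other 2 probes of *amh* were unaffected: CUST_20078_PI416070213 differed by -1.16 and CUST_20079_PI416070213 by -1.50. The values of *ihh* and *sdf1a* were the same with and without spots bearing that mark. A different background mark of the scanner software lay on the marked *amh* spot too. It also lay on 4 of the 48 spot readings of *ihh*, which were kept here.

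The 3 probes of a target read the same transcript and are not replicates, and how closely they ran together differed between the genes. The log2 differences of the *sdf1a* probes were -1.68, -1.66 and -1.64, a range of 0.04, and 7.69% of the 4358 targets with 3 measured probes had a smaller range. Those of *ihh* were -1.90, -2.01 and -1.98, a range of 0.11, close to the median range of 0.12. Those of *amh* had a range of 0.60, above that of 97.2% of the targets, and of 0.34 without the marked spot, above 90.9%. Within stage II pool 1 alone the *amh* range fell from 1.57 to 0.40 once the spot was left out. Measured from the stage I mean, the *ihh* range was 0.33, 0.34 and 0.05 in stage II pools 1, 2 and 3. The median over all targets was 0.17, 0.14 and 0.12 in those pools. In pool 1 no *ihh* probe was well above background. With a limit of 2-fold, a log2 difference of 1, the *amh* probe nearest to it on the inside was CUST_20078_PI416070213, and CUST_20077_PI416070213 was the only probe of the 3 genes' measured targets outside it, at -0.90, which moved inside without the marked spot.

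Low signal limited *ihh* on 1 array. None of its 3 probes was well above background on stage II pool 1, whereas all 3 were on each of the other arrays of both stages. On that array the probe signals were 94.7, 107.4 and 83.4 against 500, 597 and 547 on stage I pool 1. The value of -5.11 in that pool therefore sits below the lowest spot well above background on its array, which was at -3.57. That limit bounds the level from above, and -5.11 is not a measured level. With stage II pool 1 set to -3.57 the log2 difference of *ihh* was -1.45 (2.72-fold lower), and without that pool it was -1.63. The probes of *amh* and of the first *sdf1a* target were well above background on all 8 arrays.

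The target cDN28P0002N16.F.ab1, which carries the same symbol *sdf1a*, gave almost no signal. Only 2 of its 48 spot readings were well above background, both on the plate 37 array of stage I pool 3, and 15 of 48 lay above 0 after background subtraction. Its log2 values were -7.65, -7.11 and -6.84 in the stage I pools and -5.75, -7.45 and -7.88 in the stage II pools, so that the stages overlapped. Since neither stage was measured, no fold change is given for it. Its highest value, -5.75, came from stage II pool 1, the array with the smallest share of spots well above background. Averaging the 2 targets brought the log2 difference of *sdf1a* from -1.66 to -0.74. Of the 14 gene names that joined several targets, *sdf1a* was 1 of 6 in which a target had no probe that passed the filter. Whether the 2 targets stand for 1 gene or for a pair of copies was not tested, since the array's sequences were not used here.

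The repeated arrays of pool 3 gave a measure that had not been used to choose the genes. In stage I pool 3, *amh* read 0.57 on plate 36 and 0.53 on plate 37, *ihh* read -2.57 and -3.01, and *sdf1a* read -0.01 and -0.03. In stage II pool 3, *amh* read -0.41 and -0.54, *ihh* -3.97 and -3.92, and *sdf1a* -1.19 and -1.27. The gap of -0.44 for *ihh* in stage I was larger than that of 95.2% of the targets, whereas the gap of 0.04 in stage II was larger than that of 28.6%. In a limma model of all 8 arrays that held the stage, the plate and a random effect of the pool, plate 37 differed from plate 36 by -0.10 ± 0.10 (SE) for *amh* (adjusted *p* = 0.92), by -0.27 ± 0.16 for *ihh* (adjusted *p* = 0.771) and by -0.10 ± 0.11 for *sdf1a* (adjusted *p* = 0.938). That model called 1 of 8994 targets (0.0111%), and 674 had an unadjusted *p* under 0.05. With the plate in the model the stage differences were -1.12 for *amh*, -1.75 for *ihh* and -1.58 for *sdf1a*. Pools 1 and 2 of each stage lay on a single plate, so the comparison within a plate rests on 1 array of the other stage: it gave -0.94 and -1.21 for *amh*, -1.55 and -1.43 for *ihh*, and -1.23 and -1.60 for *sdf1a* on plates 36 and 37. The *ihh* values of plate 37 and of the model include stage II pool 1, whose signal was not well above background.

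**Figure D2:**
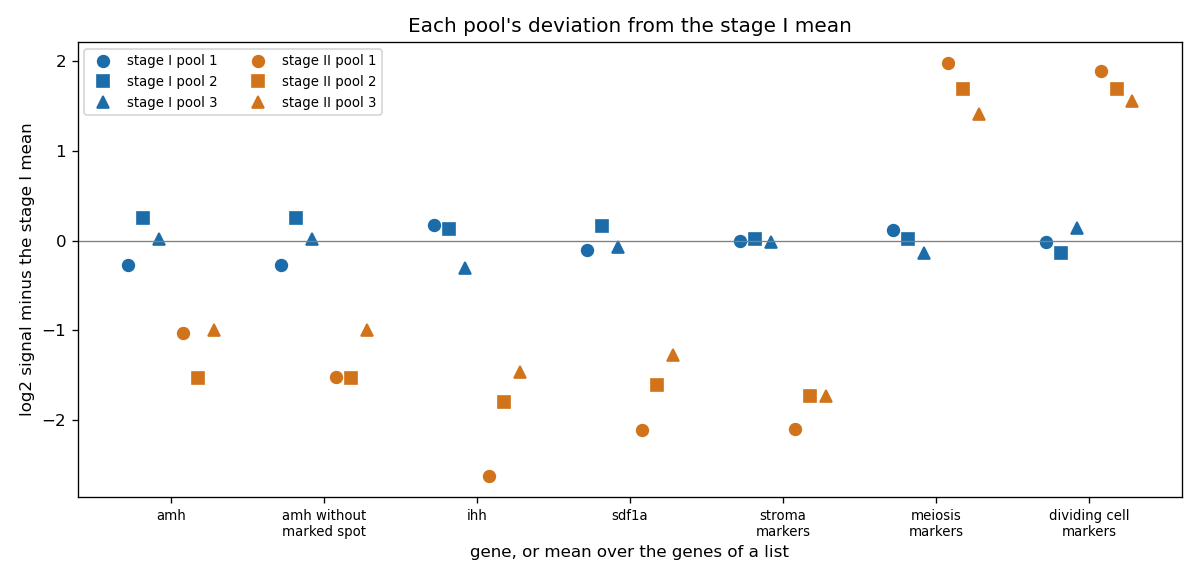
The vertical axis shows each pool's log2 signal minus the stage I mean, for *amh* with and without the marked spot, *ihh*, *sdf1a* and the mean over 3 lists of marker genes given on the horizontal axis; blue symbols are stage I pools and orange symbols stage II pools, with 1 shape per pool number. Stage II pool 1 was lowest for *sdf1a* and highest for the means of the meiosis and dividing cell markers. Its *ihh* value was not well above background. Its values of *ogn*, *lox* and *thbs1* lay below the limit of its array, so no order of the pools is read from the stroma mean.

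Measured from the stage I mean, *sdf1a* stood at -2.11, -1.61 and -1.27 in stage II pools 1, 2 and 3, with pool 1 lowest and pool 3 highest. For *ihh* pools 2 and 3 stood at -1.79 and -1.46, and pool 1 gave no order, since the limit of its array stood at -1.08 on the same scale, above both. The value of *amh* was -1.03, -1.53 and -1.00, or -1.52, -1.53 and -1.00 without the marked spot. Stage II pool 1 was the lowest pool of its stage for 49.3% of all targets and for 78.0% of the 578 targets called lower in stage II. Without it the log2 differences were -1.27 for *amh*, -1.63 for *ihh* and -1.44 for *sdf1a*.

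Markers of other cells also differed between the stages, and their part in the differences was not tested. Stroma genes went the same way as the 3 genes, and meiosis and dividing cell genes went the other way. Calls across all targets were made with limma at an adjusted *p* (Benjamini-Hochberg) under 0.01 and a fold change over 2, which took 8.13% of the 9019 targets, 6.41% as lower and 1.72% as higher in stage II. Of these calls 21.1% were higher in stage II, a share that was 38.7% with quantile scaling, 37.8% with scaling to the median and 90.4% with the deposited values without scaling. The genes of the lists below were named by the study on these same arrays as differing between these stages. Their counts, medians and *p*-values are therefore not independent evidence of a direction. Of 4 genes usually high in stroma and smooth muscle, 3 were called lower, and the list median was -1.87. The called genes were *mgp* (matrix Gla protein) at -2.03, *lox* (lysyl oxidase) at -2.00 and *thbs1* at -1.73. The other, *ogn* (osteoglycin), differed by -1.66, missed the adjusted *p* limit and was called without stage II pool 1 (-1.20). No *p*-value is given for *ogn*, whose value in that pool lay below the limit of its array. All 5 meiosis genes were called higher, with a median of 1.80, among them *dmc1*, the recombinase of meiosis, at 1.71. All 8 tested genes of dividing cells were called higher, with a median of 1.55, among them *pcna*, the sliding clamp of DNA replication, at 1.51. Normexp background correction called 138 of all targets. Its calls were 2 of 4 stroma genes, 2 of 5 meiosis genes and 2 of 8 dividing cell genes. If probes had to be well above background on all 8 arrays, 2 of the 4 stroma genes had a value, and 2 were called lower. All 5 meiosis genes and all 8 dividing cell genes were still called higher under that rule. With the methods' t-test after adjustment, 1 of the 4 stroma genes was called lower. That test called 1 of the 5 meiosis genes and 3 of the 8 dividing cell genes higher. Over the stage II pools 1, 2 and 3 the mean of the stroma genes stood -2.10, -1.73 and -1.74 from its stage I mean, that of the meiosis genes 1.98, 1.70 and 1.41, and that of the dividing cell genes 1.89, 1.69 and 1.56. Among the stroma genes, pool 1 was the lowest stage II pool for *ogn* (-5.52) and *lox* (-4.15) and the highest for *mgp* (-0.40) and *thbs1* (-5.85). Its values of *ogn*, *lox* and *thbs1* lay below the limit of its array (-3.57), so no order of the pools is read from the stroma mean.

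Beside *amh*, 4 genes of the TGF-beta family and its response carried a symbol, and all 4 were called lower in stage II (list median without *amh* -1.76, against -0.14 over all targets). Of all targets 6.41% were called lower. The 4 genes come from the study's list of genes differing between the stages, so their shared direction is not independent evidence. The receptor gene *tgfbr1*, a type I receptor of TGF-beta rather than of Amh, read 2.04, 2.27 and 2.05 in the stage I pools and 0.42, 0.08 and 0.49 in the stage II pools, a difference of -1.79 (limma adjusted *p* = 0.000811). The Nodal-related ligand gene *sqt*, named after the zebrafish gene *squint*, fell by 1.49. Its value in stage II pool 1 (-4.64) lay below the limit of that array (-3.57). The level of *sqt* in that pool was thus not measured, and no *p*-value is given for *sqt*. The gene *thbs1*, for thrombospondin 1, a matrix protein that can activate latent TGF-beta, differed by -1.73. It passed the filter through stage I alone, as none of the 4 stage II arrays had all of its probes well above background and only 1 had any. Its difference sets a signal against near background, so no *p*-value is given for it. The transcription factor gene *klf10*, known in mammals as an early response gene of TGF-beta, had the largest fall of the list. It read -0.21, 0.44 and 0.13 in the stage I pools and -2.64, -2.90 and -2.00 in the stage II pools, a difference of -2.63 (adjusted *p* = 0.00133). After normexp background correction *tgfbr1* was still called and *sqt* (-1.15), *thbs1* (-1.18) and *klf10* (-2.18) were not, and *sqt* also lost its call without stage I pool 1 or stage I pool 2 (-1.47 in each case). With the deposited log2 values 2 of these 4 genes were called without scaling and 3 after a shift to the 75th percentile. With the methods' t-test after adjustment none was called. If probes had to be well above background on every array, 2 of these 4 genes had a value, and 2 were called lower.

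For *ihh* the only other hedgehog-related gene with a symbol was *ccnd2*, for cyclin D2, a cell cycle gene that hedgehog signalling can raise. It read -1.56, -1.59 and -1.74 in the stage I pools and -0.56, -0.63 and -0.72 in the stage II pools. Its difference of 0.99 had a limma adjusted *p* of 0.00105 and fell just short of the 2-fold limit, so that it was not called, and it passed that limit without stage I pool 1 (1.03), without stage I pool 2 (1.01) or without stage II pool 3 (1.03). It also passed with quantile scaling (1.05), scaling to the median (1.13), the median over probes (1.14), pool 3 taken from the plate of its own stage (1.01), the deposited values without scaling (1.45) and spots with an uneven local background left out (1.02). Receptors and transcription factors of the hedgehog pathway, and the Cxcr4 receptor of the Sdf1a chemokine, were not analysed here, as no symbol paired them with a target. Symbols came only from the study's list of genes that differed between these stages. A gene that did not change would carry no symbol here, even with a target on the array.

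Beside *sdf1a*, 3 chemokine and cytokine genes carried a symbol and all 3 were called lower, with a list median without *sdf1a* of -1.49. Over all targets 6.41% were called lower. These genes too come from the study's list of genes differing between the stages, so their shared direction is not independent evidence. If probes had to be well above background on every array, 2 of these 3 genes had a value, and 2 were called lower. The gene *q2laq1*, annotated as a CC-like chemokine, fell from 3.62 ± 0.30 to 2.13 ± 0.11 (SD, n = 3 pools), a difference of -1.49 (limma adjusted *p* = 0.00142). The gene *socs3*, a feedback inhibitor of cytokine signalling, fell by 1.49 (adjusted *p* = 0.000979). The gene *stat3*, a transcription factor downstream of cytokine receptors, differed by -1.30. It too passed the filter through stage I alone, as none of the 4 stage II arrays had all of its probes well above background and 1 had any. No *p*-value is given for *stat3* for that reason. After normexp background correction *socs3* was still called and *q2laq1* (-1.40) and *stat3* (-1.04) were not, and *stat3* also lost its call without stage I pool 2 (-1.31). With the deposited log2 values 1 of these 3 genes was called without scaling and 2 after a shift to the 75th percentile, and with the methods' t-test after adjustment none was.

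Among 22 secreted or matrix proteins apart from the 3 genes, 21 were tested, 17 were called lower and 2 higher, and the median was -1.52. Over all targets 6.41% were called lower and 1.72% higher, and these genes too come from the study's list of genes differing between the stages. The list repeats *mgp*, *ogn*, *lox*, *thbs1*, *sqt* and *q2laq1* from the lists above. The lower ones included *rbp4*, the retinol carrier of plasma, at -1.89 and *igfbp5* at -1.33. The 2 higher ones were *igfbp6*, another binding protein of insulin-like growth factors, at 2.21, and *vash2* (vasohibin 2) at 1.03. The call of *igfbp6* was lost when any 1 of the stage I pools was left out (2.15 to 2.32), that of *vash2* without stage II pool 1 (0.95). After normexp background correction 6 of the 21 genes were called lower, *rbp4* (-1.83) and *igfbp5* (-1.02) not among them, and none higher. With the deposited log2 values, which differ in background treatment too, the calls were 7 lower and 3 higher without scaling and 12 lower and 0 higher after a shift to the 75th percentile. Only 13 of the 21 had a value when probes had to be well above background on every array, with 11 called lower and 1 higher. The methods' t-test after adjustment called 5 of the 21 lower and 0 higher. Of the 11 other genes that the study placed under reproduction, 6 were called higher and 3 lower, and their median was 1.31. Under the stricter rule 9 of them had a value, with 6 called higher and 1 lower. The 11 genes include the meiosis genes, *ttk* of the dividing cell list, *tgfbr1* of the TGF-beta list and *adamts1* of the secreted list. Such genes are counted there too.

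**Figure D3:**
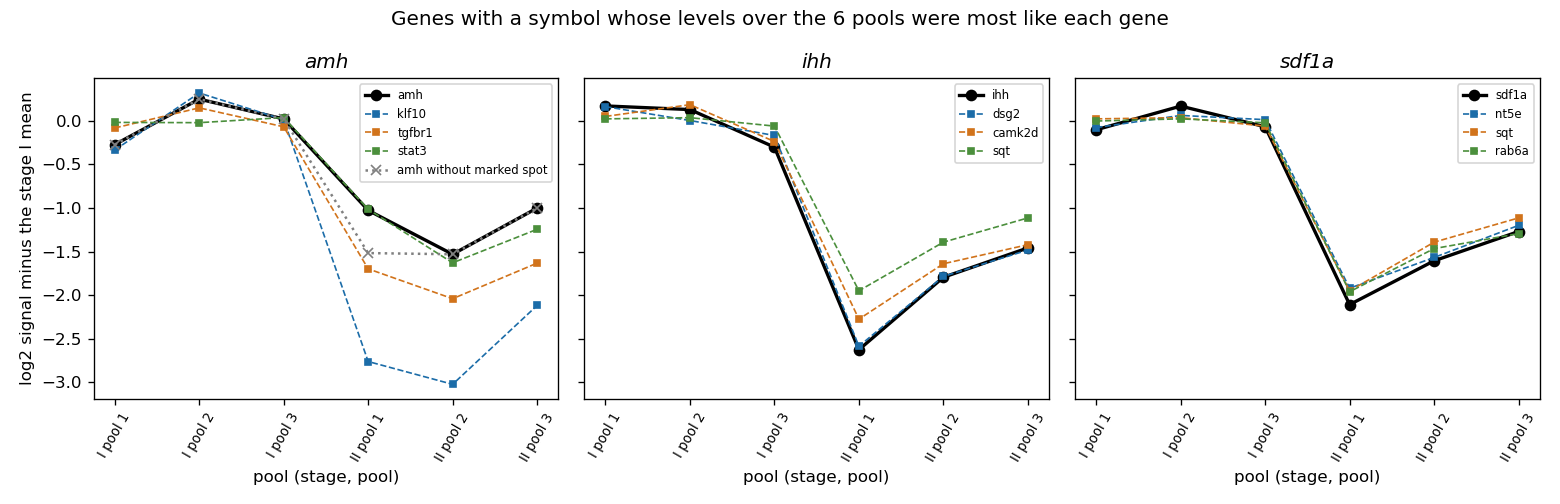
The vertical axis shows the log2 signal minus the stage I mean in the 6 pools given on the horizontal axis, for each gene (black circles) and for the 3 genes with a symbol that were most like it (coloured squares), with *amh* without its marked spot as grey crosses; lines join the values of a gene and mark no order of the pools. In stage II pool 1 the black *amh* value lies at -1.03 and the grey one at -1.52.

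Likeness was measured with Pearson's *r* over the 6 pools among 152 targets with a symbol, as a description without a test, since all of these genes were listed for a difference between the same stages. For *ihh* it includes the value of stage II pool 1 that was not well above background. For *ihh* the most alike were *dsg2* (desmoglein 2, a desmosome protein), with an *r* of 0.997, *camk2d* (a calcium/calmodulin-dependent kinase subunit) with 0.997 and *sqt* with 0.994. For *sdf1a* they were *nt5e* (the ecto-5'-nucleotidase) with 0.997, *sqt* with 0.996 and *rab6a* (a regulator of Golgi traffic) with 0.995. For *amh* they were *klf10* with 0.978, *tgfbr1* with 0.975 and *stat3* with 0.965, and without spots bearing the background mark they were *klf10* with 0.994, *nt5e* with 0.978 and *sdf1a* itself with 0.976. In stage II pool 1 *dsg2* (-4.63), *camk2d* (-4.14), *sqt* (-4.64) and *stat3* (-5.56) also lay below the limit of that array (-3.57), so their *r* rests partly on values near background. Between the 3 genes *r* was 0.987 for *ihh* and *sdf1a*, 0.906 for *amh* and *sdf1a*, and 0.847 for *amh* and *ihh*. The last 2 values were 0.976 and 0.935 without the marked spot.

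**Figure D4:**
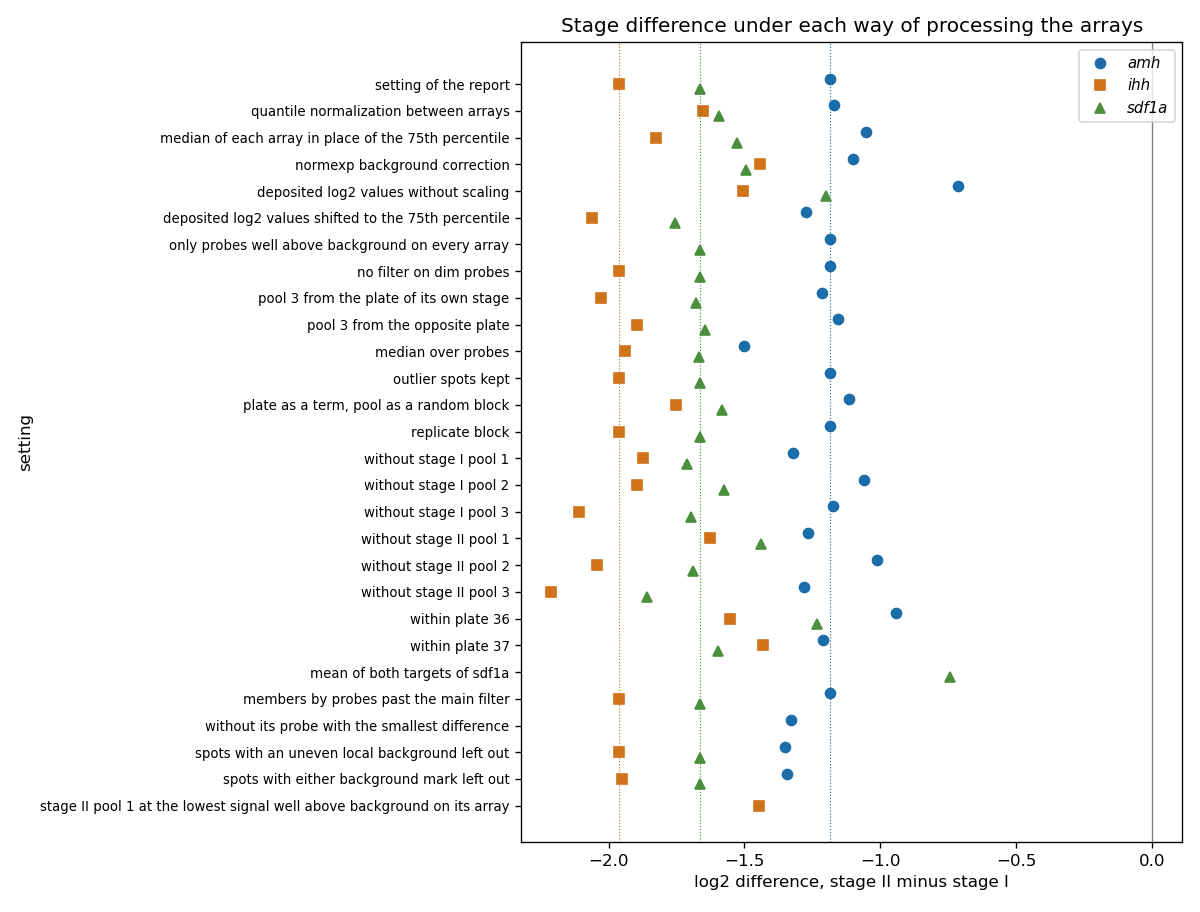
The horizontal axis shows the log2 difference (stage II minus stage I) of *amh* (circles), *ihh* (squares) and *sdf1a* (triangles), and the vertical axis the ways in which the arrays were processed, with dotted lines at the values given above. Every point lies below 0, between -1.50 and -0.71 for *amh*, -2.21 and -1.43 for *ihh*, and -1.86 and -0.74 for *sdf1a*.

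All 3 genes kept lower values in stage II under each alternative that was run, 25 for *amh*, 24 for *ihh* and 25 for *sdf1a*. The median over probes in place of the mean gave -1.50 for *amh*, the difference of CUST_20079_PI416070213, which was the middle probe on every array. With CUST_20077_PI416070213, the probe with the marked spot, left out, the mean of the other probes differed by -1.33. The deposited log2 values without scaling between arrays gave -0.71 for *amh*, -1.50 for *ihh* and -1.20 for *sdf1a*, and in those values the median target was higher in stage II by 0.33.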

How the data were processed

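Total RNA from 6 pools was hybridised on 8 one-colour Agilent arrays. The authors deposited scanner tables with the processed signal intensity of each spot, from Agilent Feature Extraction (10.4 per the submitters' notes, 10.7.3.1 per the file headers), and a table of log2 values, which equalled log2 of the background-subtracted signal without scaling between arrays. Per the methods, signals were shifted to the 75th percentile and genes taken at a fold change over 2 and *p* under 0.01. Here processed signals were set to log2, shifted to each array's 75th percentile, and the spots of a probe were averaged without feature outliers. Tests used the 18278 of 24200 probes that at least 1 stage showed well above background on all its arrays, while every probe of the 3 genes was used. Targets were means of probes, and targets joined under 1 name were merged except for *sdf1a*. Stages were compared with limma 3.58.1 in R 4.3.3 over 3 pools per stage. The pools were labelled as separate samples, and the number of arrays limits the precision. On simulated data with a log2 change of 1.5, the stage fit recovered 93.5% of 200 changed targets. The probes of each array have no counts, so no counting interval was computed. Genes and lists were chosen with earlier results of these data known. Named genes were the 3 genes, the lists, and for each gene the 3 most alike by Pearson's *r*. None of the 11705 target names matched the RefSeq gene table, so no positions or sequences are given.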

Additional observations from a re-analysis of the deposited data

How the results depend on the processing

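Stage differences of *amh*, *ihh* and *sdf1a* kept their direction in all 25, 24 and 25 alternatives run, of which 1 to 4 per gene were chosen after seeing the data. Leaving out a pool gave -1.32 to -1.01 for *amh*, -2.21 to -1.63 for *ihh* and -1.86 to -1.44 for *sdf1a*. The values that moved by more than the spread between pools were -1.44 (normexp), -1.43 (plate 37 alone) and -1.45 (stage II pool 1 at its array's limit) for *ihh*, -0.71 (deposited values without scaling) and -1.50 (median over probes) for *amh*, and -1.20 (deposited values without scaling), -1.23 (plate 36 alone) and -0.74 (both targets averaged) for *sdf1a*. The limit for *ihh*, the median over probes for *amh* and the added target for *sdf1a* act through the values given above, and for the others the cause was not tested. The plate 37 value of *ihh* includes stage II pool 1, whose signal was not well above background. When probes had to be well above background on all 8 arrays *ihh* had no value, and the median of the hedgehog list became 0.99, that of *ccnd2* alone. The plate effects kept their direction under quantile and median scaling and in the mean of the repeated arrays of pool 3, although for *ihh* the stage II repeat alone went the other way by 0.04.

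Of all targets, 733 were called (155 higher, 578 lower), 269 to 916 when a pool was left out (385 without stage I pool 1 and 269 without stage I pool 2), 138 with normexp, 474 with deposited values shifted to the 75th percentile, 433 with probes well above background on all 8 arrays, 457 with no filter, and 83 with the methods' t-test after Benjamini-Hochberg (604 unadjusted). The share called higher was 21.1%, and 38.7% with quantile scaling, 37.8% with median scaling and 90.4% with the deposited values without scaling, where the median target stood at -0.05, -0.00 and 0.33. The pool numbers did not pair the samples (correlations of same-numbered pools' deviations of -0.004, -0.003 and -0.059), and with the replicate block 503 targets were called. Signal near background limits *ihh* in stage II pool 1 and the second *sdf1a* target.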
